A study of Homo sapiens with 372 samples.

Results

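The enzymes of serine, asparagine and proline synthesis, with their mitochondrial one-carbon and phosphoenolpyruvate neighbours, were followed through drug treatment in single A2780 cells. The list was drawn up by gene symbol and holds 10 enzymes, ASNS, PHGDH, PSAT1, PSPH, SHMT2, MTHFD2, ALDH1L2, PCK2, ALDH18A1 and PYCR1. Of these, 9 have a row among the 9664 genes of the expression table, and PYCR1 was not analysed here. The enzymes were chosen by their differences from control in these same cells, since the list was drawn up with results of these data in view, so that the differences from control below describe the genes that were picked and are not independent evidence that this pathway stands out. All 9 enzymes passed the detection limit used for comparisons, which asks for a value above 0 in more than 30% of the cells of at least 1 condition and is met by 9655 genes.

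A2780 is an established human ovarian endometrioid adenocarcinoma line, grown here in RPMI medium with fetal bovine serum. Control cells received no drug, and no time is given for them. The other groups received 5 nM paclitaxel, which binds microtubules and blocks their disassembly, for 16 h or 48 h, 75 µM celecoxib, a cyclooxygenase inhibitor, for 2 h or 16 h, or both drugs at these doses for 16 h. The cells were trypsinized, captured on the Fluidigm C1 system and sequenced with full-length Smart-seq2 after 3 polyA-tailed spike-in RNAs had been added. The table holds 46 control cells, 56 and 53 cells after 16 h and 48 h of paclitaxel, 63 and 61 cells after 2 h and 16 h of celecoxib, and 59 cells after the combination. Before the authors removed cells with poorly detected housekeeping genes there were 57, 58, 65, 66, 67 and 59 in the same order. The loss was uneven between conditions, and its part in the differences below was not tested. In the labels the libraries of a condition share a name prefix that no other condition has, and no separate culture is named, so a condition counts as 1 sample, no test between conditions was made, and every SD below is a spread over cells.

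Serine is made in the cytosol from a glycolytic intermediate by PHGDH, PSAT1 and PSPH, and in mitochondria SHMT2, MTHFD2 and ALDH1L2 break serine down to glycine and one-carbon units carried on folate. ASNS makes asparagine from aspartate with glutamine as the nitrogen donor, ALDH18A1 and PYCR1 act at the start and the end of proline synthesis from glutamate, and PCK2 turns mitochondrial oxaloacetate into phosphoenolpyruvate. Several of these genes are known targets of ATF4, a transcription factor whose translation increases in the integrated stress response, for instance when amino acids run short or the endoplasmic reticulum is under stress. RPMI medium supplies serine, asparagine and proline, so cells grown in it need not make all of these amino acids themselves.

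ASNS is the textbook ATF4 target of the list, and its promoter is shown because it is the only enzyme promoter here that held the core of the C/EBP-ATF response element, the DNA motif that ATF4 dimers bind. RefSeq promoter windows, from 250 bases before to 50 bases after a transcription start on GRCh38.p14, were at hand for 6 of the 10 enzymes (PHGDH, PSAT1, MTHFD2, ASNS, ALDH18A1 and PCK2), in 7 windows. The letters TGATGNAA on either strand were found in 1 of these windows and in 3.62% of 35116 promoter windows of all genes. The stretch of the ASNS window around the motif lies at chr7:97872417-97872536 on the minus strand, the motif is in capitals, and it lies 68 to 61 bases before the start, in the sense direction.
ASNS promoter: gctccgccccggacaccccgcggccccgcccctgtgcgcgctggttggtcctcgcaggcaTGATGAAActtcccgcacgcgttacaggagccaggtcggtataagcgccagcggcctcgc
A match of letters is no measurement of binding, and the absence of these letters from the other windows says nothing about ATF4 there.

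Expression is given as the E-value, the log2 of N/10 + 1, in which N stands for a gene's TPM once each cell had been scaled to its most abundant spike-in RNA. Because TPM is per transcript length, levels may be compared between genes. This deposited scale is called the spike-in scale below, and it keeps differences in the amount of RNA per cell. The median summed N per cell lay below that of control cells by 0.99 and 0.64 on the log2 scale after 16 h and 48 h of paclitaxel and by 0.76 and 1.52 after 2 h and 16 h of celecoxib, and above it by 0.49 after the combination. For that reason every difference is also given at the same total, after each cell was rescaled to the median total of all 338 cells. A difference in mean E-value past 0.58, which is log2 of 1.5, was called higher or lower, as a size without a test. All treatments were compared with the same 46 control cells, so the treatments' differences are not independent of one another.

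Some facts of the whole table bear on these values. Between 6126 and 6630 genes were detected per cell at the median of a condition, and how many reads each cell received is not known here. The condition cannot be told apart from the set of libraries that share a prefix. Of the treatments, only 48 h of paclitaxel, with part of its cells, shared a block of 96 library indices with control. The differences of the other treatments from control therefore cannot be told apart from the block. The combination shared 1 block with 16 h of paclitaxel and another with 16 h of celecoxib. Of 18 marker genes of epithelial, ovarian, mesenchymal and other cells, 3 had a row, KRT18, VIM and COL1A2, and none of 4 ovarian markers did, so the cell type label could be checked only in part. COL1A2, of the marker list for other cell types, had a mean E-value between 0.20 and 0.96 in the conditions, and VIM between 1.90 and 3.70. KRT18, the only 1 of 5 epithelial markers with a row, had a mean between 0.45 and 1.11. It was above 0 in 28.4% of all cells, beside 74% for VIM, so the epithelial label had little support here. The mean E-value of 41 S-phase and of 54 G2/M genes was lower than in control cells in every treatment, by 0.29 to 1.37 and by 0.50 to 1.63 on the spike-in scale and by 0.33 to 0.66 and by 0.41 to 0.86 at the same total. The relation of these lists to the enzymes over cells is given with the correlations below.

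In control cells PSAT1 was the most abundant of the 9 enzymes, with a mean E-value of 4.36 ± 1.40 (SD, n = 46 cells), which is above 88% of all genes. MTHFD2 at 3.92 ± 1.27, PHGDH at 3.84 ± 1.58, PSPH at 3.14 ± 1.12, SHMT2 at 3.07 ± 1.40 and ASNS at 2.97 ± 1.32 followed. ALDH18A1 was lower at 2.21 ± 1.21. The rare transcripts were PCK2 at 1.04 ± 1.28 and ALDH1L2 at 0.34 ± 0.80, above 39.1% and 12% of all genes. Neighbours in this order differed by less than their spread over cells.

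**Figure D1:**
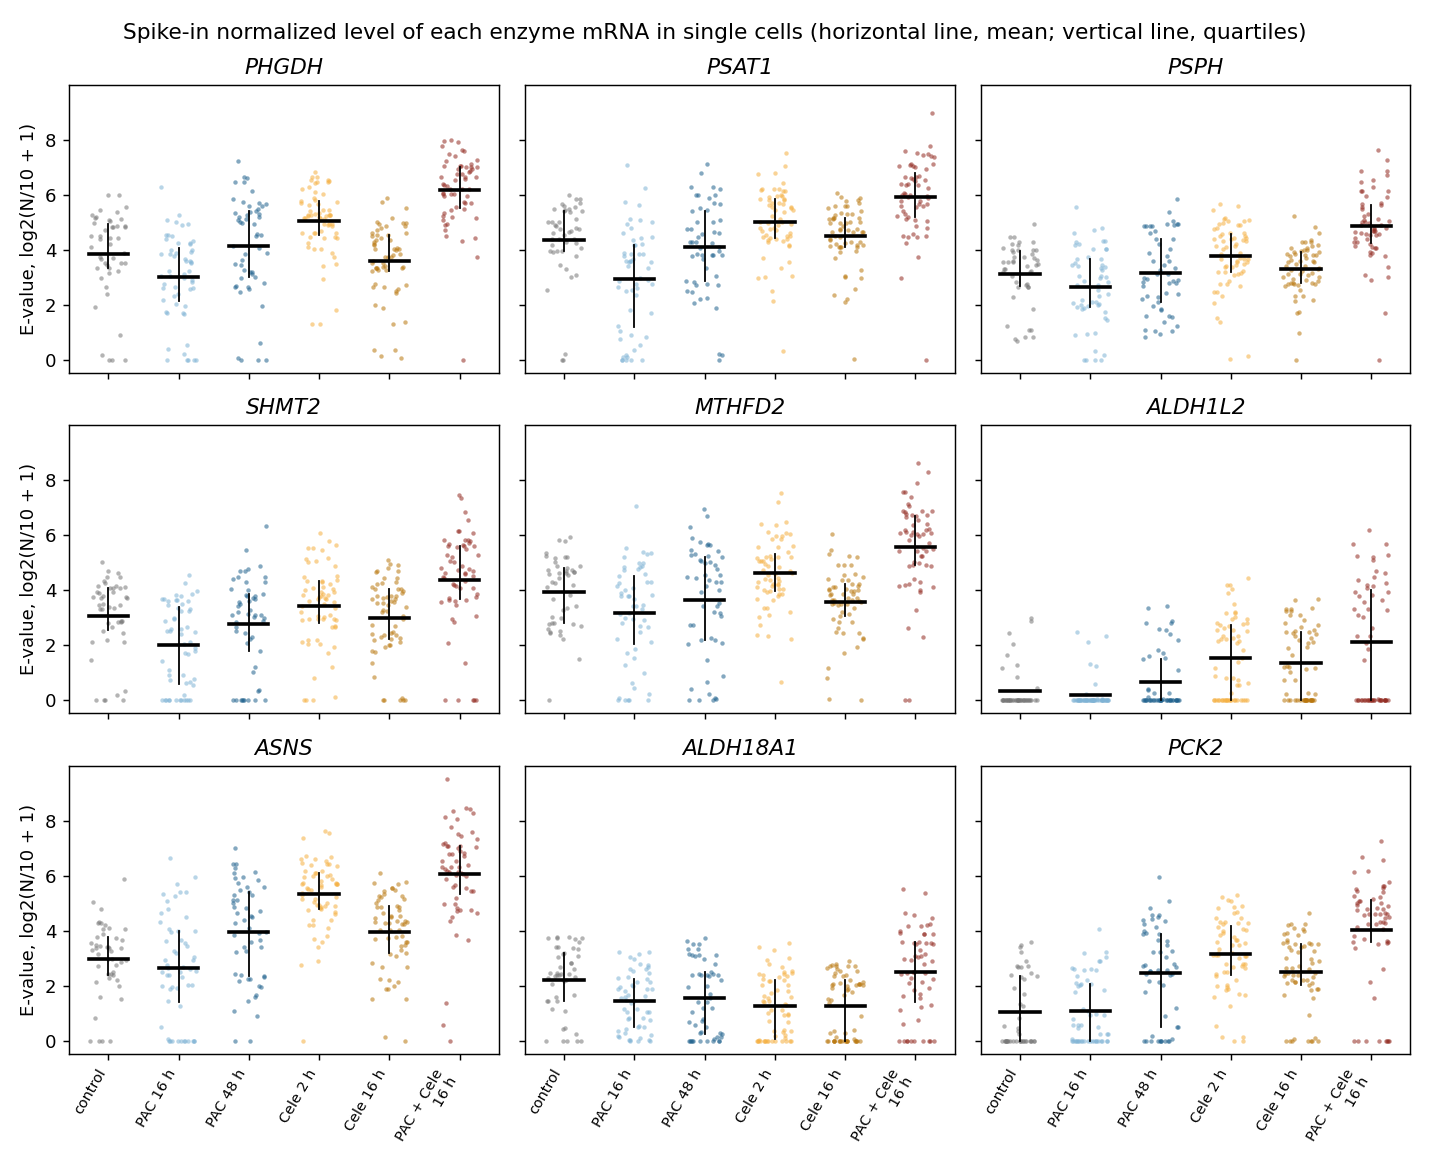
Each panel shows 1 enzyme, each point is 1 cell, the vertical axis is the E-value on the log2 scale and the horizontal axis gives the 6 conditions. The horizontal line is the mean and the vertical line spans the quartiles. PAC stands for paclitaxel and Cele for celecoxib. The combination has the highest mean in all 9 panels and also the highest median total per cell. ASNS and PCK2 are the panels in which the means of both celecoxib times and of 48 h of paclitaxel lie over 0.58 above control. ALDH18A1 is the panel in which the means of all single-drug conditions lie over 0.58 below control.

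PHGDH, on chromosome 1 (hg38, 119648411 to 119744218, plus strand), oxidizes 3-phosphoglycerate in the committed step of serine synthesis. Its E-value in control cells had a lowest, median and highest value of 0.00, 4.32 and 6.00, against 0.00, 3.18 and 6.28 after 16 h and 0.00, 4.52 and 7.23 after 48 h of paclitaxel. It was 1.31, 5.22 and 6.83 after 2 h of celecoxib, 0.06, 3.76 and 5.87 after 16 h, and 0.00, 6.37 and 7.98 after the combination. The ranges of all conditions overlapped, and 38 of 59 combination cells lay above the highest control cell while no cell after 16 h of celecoxib did. The difference in mean from control on the spike-in scale was −0.84 and 0.29 for 16 h and 48 h of paclitaxel, 1.19 and −0.26 for 2 h and 16 h of celecoxib, and 2.34 for the combination. They became −0.16, 0.85, 1.74, 1.02 and 1.68 at the same total. The sign for 16 h of celecoxib therefore depended on the scale, with fewer PHGDH transcripts per cell than in control but a larger share of the cell's transcripts.

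PSAT1, on chromosome 9 (78297125 to 78330093, plus strand), transfers an amino group from glutamate to the PHGDH product. After 16 h of paclitaxel its mean E-value was 2.93 ± 1.85 (n = 56 cells), and its difference from control, −1.43 on the spike-in scale and −0.80 at the same total, was the lowest of the list on both scales. Only 9 of these 56 cells lay above the control median. After 48 h the difference was −0.27 and 0.31 on the same scales. Celecoxib gave 0.64 and 1.20 after 2 h and 0.13 and 1.47 after 16 h, and the combination gave 1.57 and 0.91. PSAT1 thus had its highest share of the transcripts after 16 h of celecoxib and its highest number per cell after the combination. In normalized TPM, the ratio of mean PSAT1 to mean PHGDH was 1.3 in control cells, 1.71 after 16 h of celecoxib and 0.903 after the combination.

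PSPH, on chromosome 7 (56011051 to 56051604, minus strand), removes the phosphate that leaves serine. Its mean E-value was 3.14 ± 1.12 in control cells, 2.65 ± 1.38 and 3.16 ± 1.38 after 16 h and 48 h of paclitaxel, 3.78 ± 1.17 and 3.30 ± 0.90 after 2 h and 16 h of celecoxib, and 4.87 ± 1.3 after the combination (SD over cells). Its differences from control at the same total were 0.16, 0.53, 1.12, 1.39 and 1.02 in that order of treatments. The 3 serine synthesis enzymes therefore stood past the limit at the same total in all celecoxib-containing conditions, and after 48 h of paclitaxel only PHGDH did.

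SHMT2, on chromosome 12 (57229573 to 57234935, plus strand), splits serine to glycine in mitochondria. Its mean E-value was 3.07 ± 1.40 in control cells and 2.00 ± 1.49 after 16 h of paclitaxel, where 12 of 56 cells were listed at 0 against 4 of 46 control cells. It differed from control by −1.07, −0.29, 0.36, −0.07 and 1.31 on the spike-in scale and by −0.50, 0.21, 0.85, 1.09 and 0.73 at the same total, for 16 h and 48 h of paclitaxel, 2 h and 16 h of celecoxib and the combination. SHMT2 had the smallest difference of the serine and one-carbon enzymes after 2 h of celecoxib and after the combination on both scales.

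MTHFD2, on chromosome 2 (74186172 to 74217565, plus strand), oxidizes the folate-bound one-carbon unit. Its lowest, median and highest E-values were 0.00, 4.28 and 5.94 in control cells, 0.68, 4.58 and 7.54 after 2 h of celecoxib, 0.00, 3.70 and 6.03 after 16 h, and 0.00, 6.02 and 8.62 after the combination. The combination cells were the high group, with 31 of 59 above the highest control cell, and the ranges overlapped. The differences from control were −0.75, −0.27, 0.69, −0.35 and 1.67 on the spike-in scale and −0.08, 0.25, 1.25, 0.94 and 1.02 at the same total, for 16 h and 48 h of paclitaxel, 2 h and 16 h of celecoxib and the combination. Spread over cells widened after 48 h of paclitaxel, where the SD of the E-value was 1.98 against 1.27 in control cells.

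MTHFD2 and SHMT2 were compared with their cytosolic counterparts. MTHFD1 carries out the corresponding folate reactions in the cytosol, and the ratio of mean MTHFD2 to mean MTHFD1 in normalized TPM was 1.19 in control cells. It was 1.98 and 3.45 after 16 h and 48 h of paclitaxel, 4.11 and 3.96 after 2 h and 16 h of celecoxib, and 3.58 after the combination. MTHFD2 exceeded MTHFD1 in 29 of 46 control cells, in 55 of 63 and 55 of 61 celecoxib cells and in 53 of 59 combination cells. Mean SHMT2 was 3.86 times mean SHMT1, its cytosolic form, in control cells, 3.22 and 4.83 times after 16 h and 48 h of paclitaxel, 4.84 and 11.1 times after 2 h and 16 h of celecoxib, and 5.73 times after the combination. SHMT2 exceeded SHMT1 in 41 of 46 control cells, in 39 of 56 and 42 of 53 cells after 16 h and 48 h of paclitaxel, in 58 of 63 and 52 of 61 celecoxib cells and in 51 of 59 combination cells, so the higher ratio of means after 16 h of celecoxib did not go with a larger share of such cells. The comparison of both genes within a cell does not depend on its spike-in scaling, but a ratio shows unequal change only, and these pairs were chosen after values had been seen.

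ALDH1L2, on chromosome 12 (105019784 to 105107643, minus strand), releases the one-carbon unit of mitochondrial formyl-folate as carbon dioxide. It was listed above 0 in 9 of 46 control cells, or 19.6% (exact Clopper-Pearson 95% interval 9.36 to 33.9%, counting error only), and in 16.1% (7.62 to 28.3%) of cells after 16 h of paclitaxel. After 48 h the share was 41.5% (28.1 to 55.9%). It was 66.7% (53.7 to 78%) and 65.6% (52.3 to 77.3%) after 2 h and 16 h of celecoxib and 55.9% (42.4 to 68.8%) after the combination. These intervals cover counting error within 1 sample per condition and do not compare conditions. The median total per cell lay between 0.348 and 1.4 times that of control cells in the treatments. The part of total and depth in these shares was not tested. The highest E-value was 2.98 in control cells, 4.43 after 2 h of celecoxib and 6.18 after the combination, and 26 of 59 combination cells were listed at 0. As this transcript was near the detection limit in control cells, its differences in mean E-value of 1.18, 1.00 and 1.77 for 2 h and 16 h of celecoxib and the combination understate the change.

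ASNS, on chromosome 7 (97851677 to 97872542, minus strand), had the largest difference in mean E-value of the list after 2 h of celecoxib and after the combination on both scales. Its lowest, median and highest E-values were 0.00, 3.28 and 5.87 in control cells, 0.00, 2.62 and 6.64 after 16 h of paclitaxel and 0.00, 4.28 and 7.00 after 48 h. They were 0.00, 5.56 and 7.62 after 2 h of celecoxib, 0.00, 4.26 and 6.09 after 16 h, and 0.00, 6.30 and 9.52 after the combination. The cells after 2 h of celecoxib and after the combination were the high groups, and their ranges overlapped with that of control cells. In normalized TPM the mean was 101 ± 99.1 in control cells, 524 ± 393 after 2 h of celecoxib and 1130 ± 1200 after the combination, or 5.2 and 11.2 times the control mean. The difference in mean E-value was −0.31, 0.98, 2.36, 0.97 and 3.11 on the spike-in scale and 0.22, 1.5, 2.85, 2.21 and 2.40 at the same total, for 16 h and 48 h of paclitaxel, 2 h and 16 h of celecoxib and the combination. Of 9655 genes, ASNS had the largest difference from control after 2 h of celecoxib on both scales, and after the combination it stood at rank 2 on both. After 2 h of celecoxib, 60 of 63 cells lay above the control median on the spike-in scale and 62 of 63 at the same total.

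ALDH18A1, on chromosome 10 (95605941 to 95656711, minus strand), makes the glutamate semialdehyde from which proline and ornithine are built, and it did not follow the others. Its lowest, median and highest E-values were 0.00, 2.40 and 3.77 in control cells, 0.00, 1.31 and 3.57 after 2 h and 0.00, 1.66 and 2.92 after 16 h of celecoxib, and 0.00, 2.79 and 5.50 after the combination. No cell of any single-drug condition exceeded the highest control cell. The differences from control were −0.76, −0.66, −0.93, −0.94 and 0.29 on the spike-in scale and −0.25, −0.25, −0.53, −0.14 and −0.14 at the same total, in the order of treatments above, so that at the same total none passed the limit. In normalized TPM the ratio of mean ASNS to mean ALDH18A1 was 1.96 in control cells, 23.5 after 2 h of celecoxib and 13.7 after the combination, a pair chosen after values had been seen.

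PCK2, on chromosome 14 (24094053 to 24110598, plus strand), was listed above 0 in 23 of 46 control cells and in 61 of 63, 54 of 61 and 51 of 59 cells after 2 h and 16 h of celecoxib and the combination. Its lowest, median and highest E-values were 0.00, 0.13 and 3.57 in control cells, 0.00, 0.57 and 4.06 after 16 h and 0.00, 2.57 and 5.94 after 48 h of paclitaxel. They were 0.00, 3.18 and 5.31 after 2 h of celecoxib, 0.00, 2.62 and 4.64 after 16 h, and 0.00, 4.60 and 7.25 after the combination. Again the ranges overlapped, and 45 of 59 combination cells lay above the highest control cell. Differences from control were 0.04, 1.41, 2.10, 1.46 and 2.99 on the spike-in scale and 0.25, 1.66, 2.33, 2.32 and 2.21 at the same total, for 16 h and 48 h of paclitaxel, 2 h and 16 h of celecoxib and the combination. PCK2 had the largest difference of the 9 enzymes after 48 h of paclitaxel on both scales.

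When the 6 conditions were ordered by mean level for each gene, 45 pairs of neighbours arose on each scale. On the spike-in scale 2 of these gaps were larger than the smaller SD over cells of the pair. They were the gap of 1.38 for ASNS between 2 h of celecoxib and 48 h of paclitaxel and that of 1.38 for PCK2 between 48 h and 16 h of paclitaxel. With totals made equal 1 gap was, that of 1.40 for PCK2 between 48 h and 16 h of paclitaxel. The combination had the highest mean of all 9 enzymes on the spike-in scale and of none at the same total, where 2 h or 16 h of celecoxib led for 8 enzymes and control for ALDH18A1. On the spike-in scale the combination also had the highest median total per cell. The median difference of all genes from control was highest there too, at 0.33. How many of all genes had their highest mean in the combination was not counted.

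Counted over the list, paclitaxel for 16 h left 0 of 9 enzymes higher than control and 5 lower on the spike-in scale, where 0.0932% of all 9655 genes were higher and 37.3% lower. The 5 were PHGDH, PSAT1, SHMT2, MTHFD2 and ALDH18A1. Rescaled to the same total, 0 were higher and 1, PSAT1, was lower, against 1.40% and 10.0% of all genes. The median difference of the enzymes was −0.75 on the spike-in scale and −0.10 at the same total, beside −0.41 and −0.07 for all genes. The 1 of 9 lower at the same total is near the share of all genes.

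After 48 h of paclitaxel, 2 of 9 enzymes were higher (ASNS and PCK2) and 1 was lower (ALDH18A1) on the spike-in scale, beside 0.922% and 26.6% of all genes. PHGDH, ASNS and PCK2 made 3 higher at the same total, with 0 lower, beside 3.28% and 5.78%. The median of the list was 0.02 and 0.40, beside −0.26 and 0.00 for all genes. Between 16 h and 48 h of paclitaxel, 5 of 9 enzymes were higher at the later time on each scale, beside 7.89% and 6.18% of all genes, and 0 were lower. These 5 were PHGDH, PSAT1, SHMT2, ASNS and PCK2, with differences of 1.13, 1.16, 0.78, 1.29 and 1.38 on the spike-in scale.

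After 2 h of celecoxib, 7 of 9 enzymes were higher and 1 was lower on the spike-in scale, beside 1.12% and 25.7% of all genes. SHMT2 was the enzyme within the limit and ALDH18A1 the lower one. With totals made equal, 8 were higher and 0 lower, beside 3.31% and 8.12%. The median of the list was 0.69 and 1.22, and that of all genes −0.26 and −0.02. After 16 h of celecoxib, 3 were higher (ALDH1L2, ASNS and PCK2) and 1 lower (ALDH18A1) on the spike-in scale, beside 0.383% and 43.9%, and 8 were higher and 0 lower at the same total, beside 7.37% and 7.95%. The median was 0.13 and 1.39, beside −0.48 and 0.03 for all genes. From 2 h to 16 h of celecoxib, 4 of 9 enzymes were lower at the later time on the spike-in scale and 0 were higher. They were PHGDH, ASNS, MTHFD2 and PCK2, with differences of −1.45, −1.39, −1.04 and −0.64. At the same total only PHGDH and ASNS were lower, by −0.72 and −0.64. PSAT1, PSPH and SHMT2 differed by 0.27, 0.28 and 0.24 at the same total, within the limit. The median of the list was −0.51 on the spike-in scale and 0.21 at the same total, beside −0.21 and 0.05 for all genes. The share of all genes past the limit was not counted here.

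After the combination, 8 of 9 enzymes were higher and 0 lower on both scales, with ALDH18A1 the exception. Of all genes 30.4% were higher and 1.76% lower on the spike-in scale and 5.96% and 5.80% at the same total. The median of the list was 1.73 and 1.02, beside 0.33 and 0.02 for all genes. The rule that made the list used these contrasts, so its counts are read as a description of the genes picked.

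**Figure D2:**
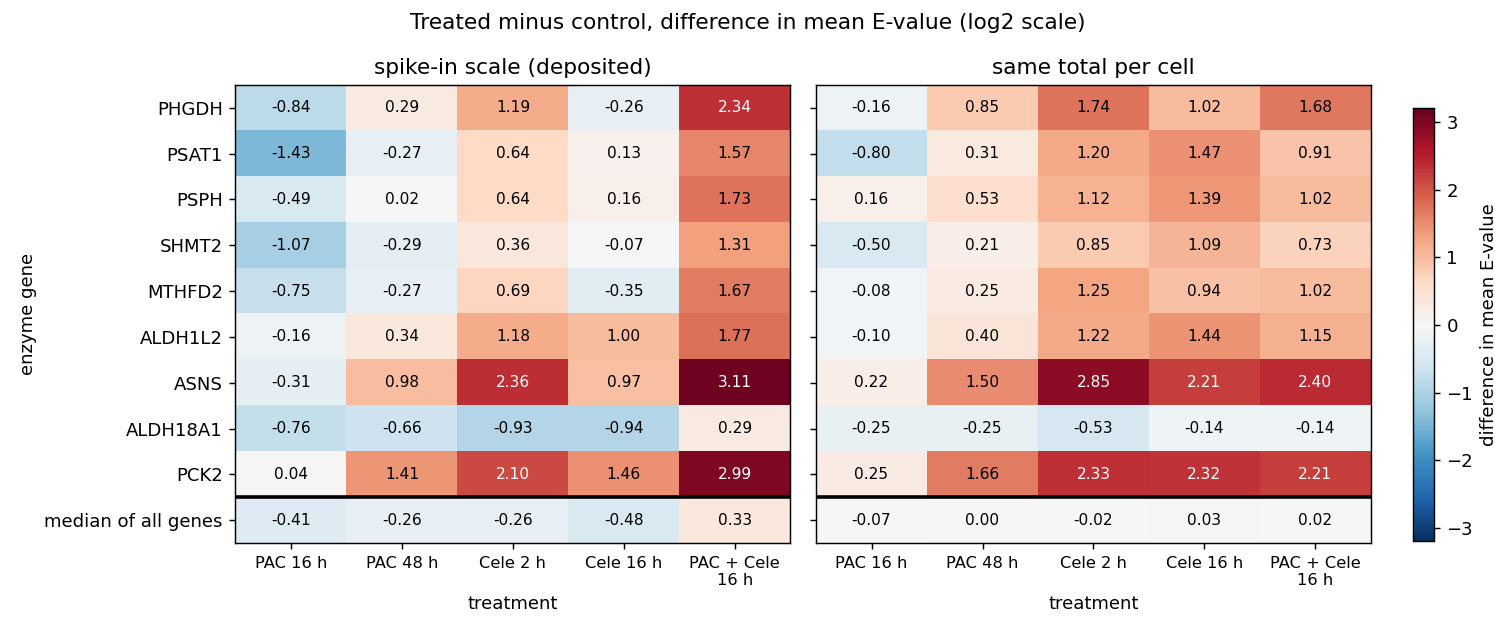
Rows are the 9 enzymes and, under the line, the median over all genes, columns are the 5 treatments, and each cell gives the mean E-value of the treated cells minus that of the control cells on the log2 scale, with red for higher and blue for lower. On the left (spike-in scale) the combination column is highest for every enzyme and also for the median over all genes. On the right (same total) the 3 celecoxib-containing columns hold values from 0.73 for SHMT2 to 2.85 for ASNS outside the ALDH18A1 row.

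The single drugs and the combination were next set side by side at 16 h. On the spike-in scale all 9 enzymes were higher in the combination than after paclitaxel alone and than after celecoxib alone, with median differences of 2.42 and 1.53, but 62.5% and 66.0% of all genes were too. With totals made equal, 8 of 9 were higher than after paclitaxel, with a median of 1.24 beside 0.10 for all genes and 9.57% of all genes past the limit. Against celecoxib alone at the same total 1 of 9 was higher, PHGDH by 0.66, beside 5.03% of all genes, and the median difference was −0.11. ASNS, PCK2 and MTHFD2 differed from celecoxib alone by 0.19, −0.11 and 0.09 at the same total. As shares of the transcripts, 8 of 9 enzymes thus differed from celecoxib alone by less than the limit, and their numbers per cell were higher together with the total.

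The difference of the combination from control was also compared with the sum of both single-drug differences. On the spike-in scale the combination exceeded the sum for all 9 enzymes, by 0.93 for ALDH1L2 to 3.43 for PHGDH, with a median of 2.44 beside 1.33 for all genes. At the same total the median excess was 0.14 beside 0.06 for all genes, with 0.83 for PHGDH, −0.03 for ASNS, −0.36 for PCK2 and −0.53 for PSPH. PHGDH was the 1 enzyme with an excess past the limit on this scale. These sums use the 46 control cells in all terms and no replicate supports them.

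**Figure D3:**
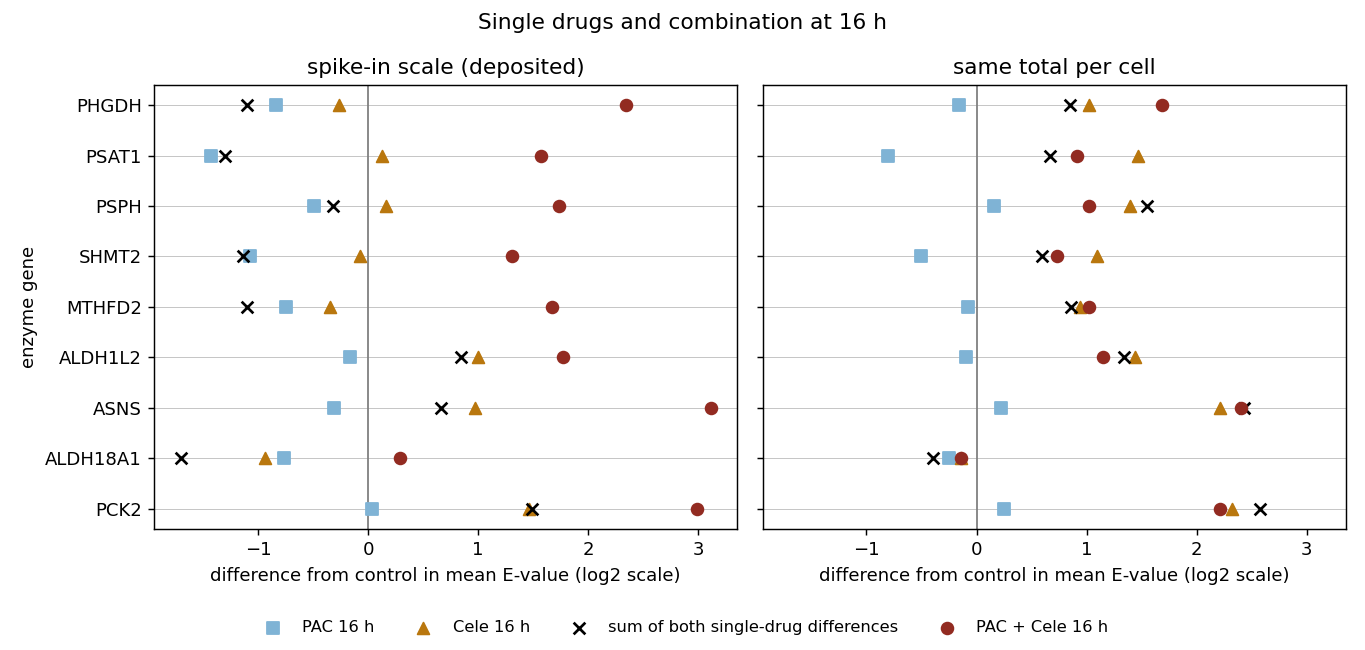
Each row is 1 enzyme and the horizontal axis is the difference from control in mean E-value on the log2 scale, for paclitaxel, celecoxib and both drugs at 16 h and for the sum of both single-drug differences. On the spike-in scale the combination lies to the right of the sum in every row, from 0.93 to 3.43, and at the same total the 2 lie within 0.36 of each other except for PHGDH and PSPH.

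Within each cell the 9 enzymes together made up a median of 6.47 of every 10000 transcripts in control cells, with a range of 2.49 to 12.7. The median was 5.67 (0.788 to 18.6) after 16 h and 11.2 (2 to 37.6) after 48 h of paclitaxel. It was 20.5 (3.97 to 36.6) and 18.9 (4.48 to 37.7) after 2 h and 16 h of celecoxib and 19.2 (2.37 to 37.9) after the combination. No condition was separated from control, and the number of cells above the highest control cell was 6 of 56, 22 of 53, 55 of 63, 52 of 61 and 43 of 59 in the same order. This share does not depend on the spike-in scaling. In the summed N itself the combination was highest, with a median of 4030 normalized TPM per cell beside 1860 and 1100 after 2 h and 16 h of celecoxib and 979 in control cells.

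**Figure D4:**
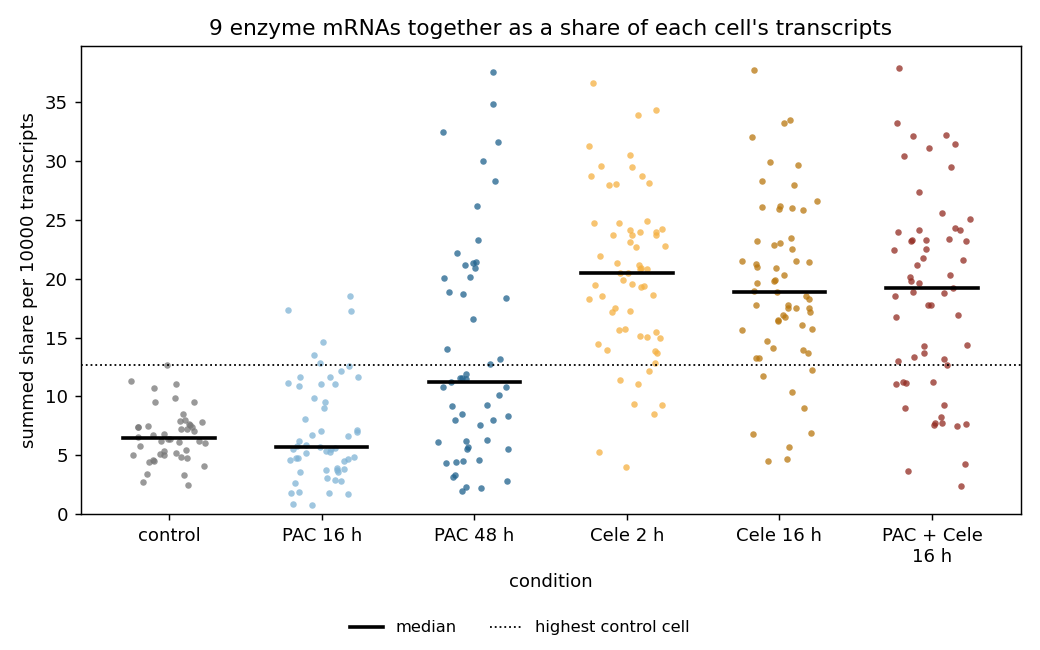
Each point is 1 cell, the vertical axis is the summed share of the 9 enzyme transcripts per 10000 transcripts of that cell, the solid lines are medians and the dotted line is the highest control cell at 12.7. The celecoxib-containing conditions have medians between 18.9 and 20.5, and the cells after 48 h of paclitaxel spread from 2 to 37.6 around a median of 11.2.

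The enzymes were also counted cell by cell, as the number of the 9 above the 90th percentile of control cells at the same total. No control cell had 5 or more, 3 of 56 cells had after 16 h of paclitaxel and 20 of 53 after 48 h. After 2 h and 16 h of celecoxib 46 of 63 and 48 of 61 cells had, and after the combination 37 of 59. The median number was 1 in control cells and after 16 h of paclitaxel, 3 after 48 h, and 6 in each celecoxib-containing condition. The threshold was set on the control cells themselves, so a low number in these cells was partly fixed in advance. The enzymes were also picked for their differences from the same control cells. No such count was made for other genes, so these numbers describe the genes picked.

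Cells treated with paclitaxel for 48 h were split between states. The authors' deposited annotation places 28 of these 53 cells in a control-like state and 25 in a suppressive state, and the median total of the latter was 1.07 below that of control cells on the log2 scale, beside 0.34 below for the former. ASNS had a mean E-value of 4.57 ± 1.58 in the control-like and 3.26 ± 1.78 in the suppressive cells, and MTHFD2 of 4.69 ± 1.25 and 2.49 ± 2.01. At the same total the differences from control cells were 1.81 and 1.15 for ASNS, 1.26 and 0.39 for PHGDH, 1.89 and 1.40 for PCK2 and 1.05 and −0.65 for MTHFD2. ASNS and PCK2 were thus past the limit in both states, and MTHFD2 stood on opposite sides of control. The states were assigned from gene expression of the same cells, so these values are no independent comparison. After 2 h of celecoxib the 26 control-like and 33 suppressive cells differed from control at the same total by 3.07 and 2.60 for ASNS and by 1.96 and 1.55 for PHGDH.

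The 48 h paclitaxel cells also came from different blocks of library indices, 22 cells from block 2 and 31 from block 4, the block of the control cells. PHGDH differed from control by −0.40 in block 2 and by 0.77 in block 4 on the spike-in scale and by 0.32 and 1.23 at the same total. ASNS differed by 1.06 and 0.93 and by 1.77 and 1.3, and PCK2 by 0.91 and 1.77 and by 1.25 and 1.95. PHGDH past the limit at 48 h of paclitaxel therefore rests on the cells of block 4, while ASNS and PCK2 were past it in each block. In the combination, blocks 1 and 3 gave 3.08 and 3.15 for ASNS and 2.41 and 2.23 for PHGDH on the spike-in scale.

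Over the cells of a condition the enzymes varied together to different degrees. The 36 pairs had a median Pearson's r of 0.07 in 46 control cells at the same total, 0.20 and 0.41 after 16 h and 48 h of paclitaxel, 0.17 and 0.14 after 2 h and 16 h of celecoxib and 0.32 after the combination. The median over all pairs of 5360 broadly detected genes was 0.01 in every condition. The cells of a condition share their set of libraries and differ in depth, so these correlations are descriptions. After 48 h of paclitaxel the cells also mix states and index blocks between which means of some enzymes differed, as given above. Correlations within a state or a block were not computed. The highest pairs were PHGDH with PCK2 after 48 h of paclitaxel (r = 0.63, n = 53 cells) and ASNS with PCK2 after the combination (r = 0.63, n = 59 cells), and the lowest was PHGDH with ALDH18A1 after the combination (r = −0.22). Of the 36 pairs, 11 exceeded 0.5 after 48 h of paclitaxel, 8 after the combination, 3 after 16 h of paclitaxel, 1 after each celecoxib time and 0 in control cells, and of all gene pairs 0.121%, 0.0257%, 0.0538%, 0.0283%, 0.03% and 0.265% did, with 2 h of celecoxib before 16 h.

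**Figure D5:**
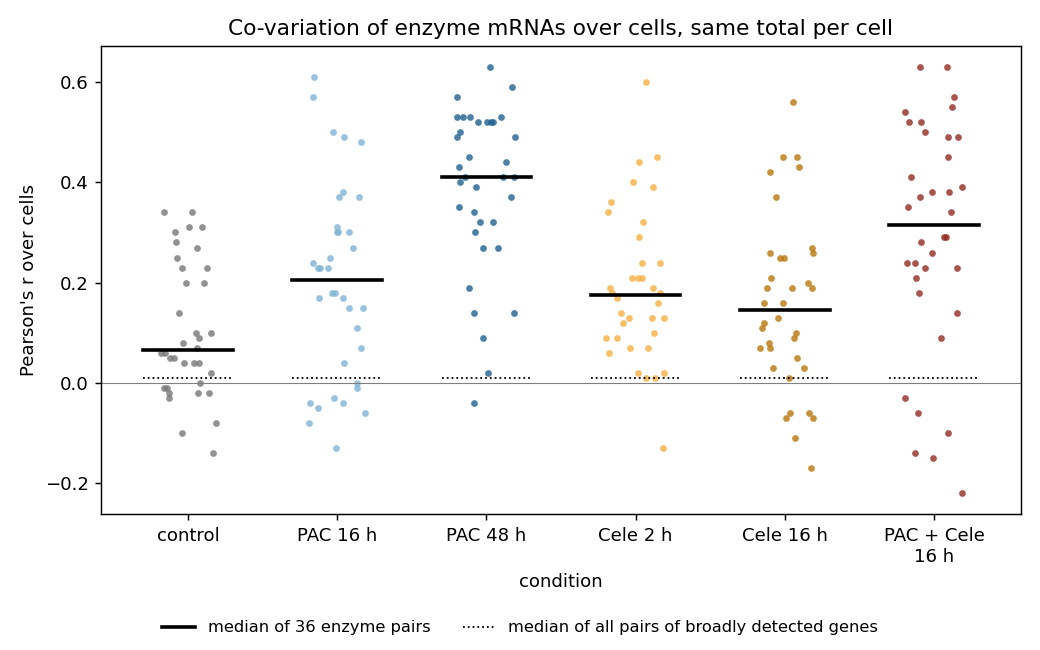
Each point is 1 of the 36 pairs of enzymes, the vertical axis is Pearson's r over the cells of a condition at the same total per cell, the solid line is the median of the pairs and the dotted line the median over all pairs of 5360 genes. The pairs centre on 0.07 in control cells and on 0.41 after 48 h of paclitaxel.

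With all 338 cells pooled after centring each gene within its condition, ASNS followed the mean of the other 8 enzymes most closely (r = 0.59), with PHGDH and PSAT1 at 0.54, MTHFD2 at 0.49, PCK2 at 0.43, SHMT2 at 0.40, PSPH at 0.39 and ALDH1L2 at 0.31. ALDH18A1 was at 0.04. Of 6540 other genes detected in at least 50% of cells, the 10 most like the mean of the enzymes were EIF4EBP1 (0.62), SLC3A2 (0.52), ATF4 (0.49), YARS (0.49), H2AFZ (0.47), GARS (0.46), SARS (0.45), SLC7A11 (0.45), EIF2S2 (0.44) and SLC1A5 (0.43), beside a median of 0.03 and a 99th percentile of 0.29 over those genes. EIF4EBP1, an inhibitor of cap-dependent translation, had r between 0.45 and 0.74 in the conditions taken alone. Its rank correlation, Spearman's rho, was 0.14 in control cells and between 0.36 and 0.79 in the treatments. For the ATF4 mRNA, r was 0.09 in control cells, with a rho of 0.17, and between 0.30 and 0.63 in the treatments. DDIT3, which encodes the stress factor CHOP, had r between −0.01 and 0.36. Measures of cycling and depth were related to the mean of the enzymes too. At the same total its r with the mean of the S-phase genes was 0.57 and 0.47 after 16 h and 48 h of paclitaxel, 0.28 in control cells and between −0.01 and 0.18 in the celecoxib-containing conditions, and with the mean of the G2/M genes 0.51, 0.49, 0.31 and between 0.16 and 0.23. With the number of genes detected r was 0.60 in control cells, 0.55 and 0.26 after 16 h and 48 h of paclitaxel and between 0.09 and 0.27 in the others, and with the log2 of the cell's total 0.65, 0.53, 0.47 and between 0.14 and 0.30. The part of cycling and depth in the co-variation of the enzymes was not tested.

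Other genes of these pathways, from lists written by function, are given for comparison. Of 16 other folate and glycine enzymes, 0 were higher in any single-drug condition on the spike-in scale, where 0.0932% to 1.12% of all genes were. After 16 h of celecoxib 13 were lower, beside 43.9% of all genes. After the combination 4 were higher, which is near the share of 30.4% of all genes. At the same total 1 was higher and 4 lower after 16 h of paclitaxel, 0 higher in any other treatment, and 4, 2, 4 and 2 lower after 48 h of paclitaxel, 2 h and 16 h of celecoxib and the combination. Of all genes 1.40% to 7.37% were higher and 5.78% to 10.0% lower in the treatments on this scale. TYMS, which makes thymidylate, differed by −0.57, −0.68, −0.73, −0.92 and −0.91 at the same total over the treatments in the same order. MTHFD1 differed by −0.60, −0.86, −0.61, −0.98 and −0.60, and SFXN1, a mitochondrial serine carrier, by −0.62, −0.72, −0.45, −0.81 and −0.52. These 3 genes lay on the other side of control from MTHFD2 and SHMT2 in the celecoxib-containing conditions at the same total. They were named for the size of their differences and do not stand for the list, whose genes lay on both sides of control. The list median was −0.03, −0.27 and −0.15 after 2 h and 16 h of celecoxib and the combination, beside −0.02, 0.03 and 0.02 for all genes. The S-phase list was lower in the same conditions, as given above.

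Of 8 genes of serine use and breakdown, 1 was higher and 1 lower after 16 h of celecoxib at the same total, 1 was lower after 2 h, and 0 passed the limit in the other treatments. With 1.40% to 7.37% of all genes higher and 5.78% to 10.0% lower on this scale, lists this short were not set apart from all genes by any test. SRR, serine racemase, differed by −1.14 after 16 h of celecoxib and PTDSS1, which puts serine into phospholipid, by −0.60 after 2 h at the same total. Of 10 enzymes of glutamine, glutamate, aspartate and alanine, 2 were lower after 16 h of paclitaxel, 0 passed the limit after 48 h, 1 was lower after 2 h of celecoxib, 1 was higher after 16 h and 2 were higher after the combination. GOT1, the cytosolic aspartate aminotransferase, differed by 0.65 after the combination, GFPT1 by 0.67, the mitochondrial GOT2 by −0.74 after 16 h of paclitaxel, and GLUL, glutamine synthetase, by −0.62 there. Of 3 other proline and ornithine genes with a row, ARG2, a mitochondrial arginase, was higher by 0.79, 0.74 and 1.03 after 2 h and 16 h of celecoxib and the combination at the same total.

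Of 18 other ATF4 pathway genes, 0 were higher after 16 h of paclitaxel, 3 after 48 h, 11 and 10 after 2 h and 16 h of celecoxib and 14 after the combination on the spike-in scale. Lower were 4, 0, 1, 1 and 1. With totals made equal, 2, 4, 13, 15 and 9 were higher and 1, 0, 0, 0 and 1 lower. Of all genes, 0.0932%, 0.922%, 1.12%, 0.383% and 30.4% were higher on the spike-in scale, in the same order of treatments. At the same total 1.40%, 3.28%, 3.31%, 7.37% and 5.96% were higher. On the spike-in scale 37.3%, 26.6%, 25.7%, 43.9% and 1.76% of all genes were lower. Lower at the same total were 10.0%, 5.78%, 8.12%, 7.95% and 5.80%. DDIT4, an mTORC1 inhibitor, differed by 0.78, 1.84, 2.48, 3.77 and 2.20 at the same total, TRIB3 by 0.17, 0.37, 1.43, 2.99 and 1.42, DDIT3 by −0.31, 0.61, 1.96, 2.22 and 1.11, and the secreted factor GDF15 by 0.62, 2.81, 0.87, 3.22 and 1.08. These genes were named for the size of their differences and do not stand for the list, which also held the lower genes counted above. Of 20 cytosolic aminoacyl-tRNA synthetases, 0, 2, 11, 10 and 7 were higher at the same total and 4, 1, 2, 4 and 2 lower. AARS differed by 1.35, 1.51 and 1.29, CARS by 1.51, 1.43 and 0.62 and SARS by 1.21, 2.04 and 1.12 after 2 h and 16 h of celecoxib and the combination, whereas FARSA differed by −1.21, −0.45 and −0.95. These lists were written with earlier results of the same cells known, and their counts are given beside the shares of all genes above without a test.

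Some of the enzymes have related copies in the genome. GENCODE 44 names 4 pseudogenes of PSAT1, 1 of PSPH, 7 of MTHFD2 and 4 of ASNS, and none of these has a row in the table. How reads were shared among the copies by the expectation-maximization of RSEM was not tested, so the levels of these genes carry that uncertainty.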

How the data were processed

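Expression was measured in 338 single A2780 cells by Smart-seq2. The authors trimmed reads with Trim Galore, ran RSEM 1.3.0 with Bowtie2 against hg38 GENCODE 28 transcripts plus 3 spike-in RNAs to obtain TPM, divided by the highest spike-in RNA of each cell and removed cells with poorly detected housekeeping genes. What they deposited is a log2 value, the log2 of N/10 + 1 with N the normalized TPM, for 9664 genes to 3 decimals, and 34.9% of the values are 0. No gene counts were used, the depth in reads is unknown, and no doublet caller was run.

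N was recovered from each E-value, cells were also rescaled to the median total of all cells, and mean E-values were compared with those of control cells. A difference past log2 of 1.5 was called, without a test, because each condition is 1 sample. Members and lists were chosen with earlier results of these data known. Named outside the 10 enzymes are at most 4 genes per list that passed the limit in the same direction on both scales, largest difference at the same total first, the 10 genes most like the enzymes' mean, and genes whose ratio or relation is described, chosen after values were seen. A gene that this rule names is not reported here. The steps were tested on simulated data. Coordinates are from GENCODE 44 on hg38, promoters from RefSeq on GRCh38.p14, and cell cycle lists from Seurat 5.3.0. The alternatives were the same total, 1 instead of 10 normalized TPM as pseudocount, ratios of linear means, both joined with the same total, medians, single index blocks, leaving out wells noted as 0 or debris, leaving the 50 most abundant genes out of the total, and a detection limit of 50% in place of 30%. R 4.3.3 and Python 3.11.15 were used, the latter with scipy 1.17.1, pandas 2.3.3, numpy 2.4.6 and matplotlib 3.10.9.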

Additional observations from a re-analysis of the deposited data

How the results depend on the processing

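No paired analysis was possible because the results come from no test. Of 396 recomputed differences of single enzymes, 361 moved by less than the SD over control cells, 33 moved by more, and 2 that had been past the limit changed sign. Counting differences within the limit, 48 of the 396 changed sign, among them 9 of 45 at the same total. The 2 past the limit came from the same total with a ratio of linear means, which gave 0.33 for MTHFD2 after 16 h of paclitaxel and 0.25 for ALDH18A1 after 16 h of celecoxib, both lower than control on the deposited scale. The cause was not tested. The same setting gave 2 enzymes higher and 0 lower after 16 h of paclitaxel, 7 higher and 0 lower after 48 h, and 8 higher and 0 lower after 16 h of celecoxib. The same total per cell, with or without the 50 most abundant genes, gave 1 lower after 16 h of paclitaxel, 0 lower after 48 h, 0 lower after 2 h of celecoxib, and 8 higher and 0 lower after 16 h of celecoxib. A pseudocount of 1 normalized TPM at the same total, chosen after seeing the data, gave 2 lower after 16 h of paclitaxel, 5 higher after 48 h and 8 higher after 16 h of celecoxib. Medians over cells gave 4 higher after 2 h of celecoxib. Index block 2 alone gave 4 lower after 48 h of paclitaxel and block 4 alone 0. The counts for the combination stayed within 1.5 times under every alternative run. With detection in over 50% of cells, the number of all genes higher after 16 h of paclitaxel was 5 in place of 9. With 1 set of libraries per condition, differences between these sets cannot be told apart from drug effects.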
